A study of Mus musculus with 7 samples.

Results

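The genes described here carry glucocorticoid activation and response: Hsd11b1, whose enzyme makes active hormone inside the cell, Nr3c1, which encodes the glucocorticoid receptor, and 7 genes that the receptor is known to induce, Fkbp5, Tsc22d3, Ddit4, Txnip, Sgk1, Per1 and Zbtb16. They are 9 genes of the 34745 in the deposited table, taken by symbol, and each symbol matched 1 row. RNA sequencing covered naive CD4 T cells, helper cells before their first antigen, taken from the spleen by negative selection and not cultured. The GOF group was 4 mice heterozygous for a gain-of-function allele of Pik3cd, the gene of the p110delta catalytic subunit of phosphoinositide 3-kinase, and the WT group was 3 wild-type mice. All 7 mice were male C57BL/6 animals aged 8 weeks, untreated and kept free of specific pathogens, and the controls were littermates. The stated number of mice per group is that of the libraries. The labels do not name the amino acid change or the way the allele was made, and the counts do not tell the alleles apart.

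Glucocorticoids enter cells by diffusion and bind the glucocorticoid receptor, which waits in the cytosol on heat shock chaperones and then moves to the nucleus, where it binds DNA and induces or represses genes. Mouse cells that express HSD11B1 can regenerate active corticosterone from its inert 11-keto form, with NADPH supplied in the endoplasmic reticulum by the enzyme H6PD. In T cells glucocorticoids are known to restrain activation, to induce death of thymocytes and, at daily hormone peaks, to alter trafficking and survival of naive cells. Several of their target genes are also reached by other routes, among them FOXO factors, stress pathways and the clock.

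The 9 genes were chosen by function with their differences between GOF and WT in these libraries already known, so their levels and folds below are a description and carry no test. Of the 9 genes 8 passed the filter on low counts, and Zbtb16 did not. Of those 8, 6 were past the threshold and higher in GOF (Hsd11b1, Fkbp5, Tsc22d3, Ddit4, Sgk1 and Per1), 1 was past it and lower (Nr3c1) and 1 was not past it (Txnip), where the threshold is an adjusted p of 0.05 in edgeR's quasi-likelihood test over 12668 genes. Among all tested genes 16.8% were past the threshold and higher and 14.5% were past it and lower. All 4 GOF libraries lay above all 3 WT libraries for the 6 higher genes and below them for Nr3c1. That pattern was found in 21.5% of tested genes in the upward and in 18.2% in the downward direction. The median log2 fold change of the 8 tested genes was 0.61, against 0.01 over all tested genes.

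The libraries held 14945520 to 16293539 counts in GOF and 14497957 to 15015783 counts in WT. Pik3cd mRNA averaged 652 ± 129 CPM in GOF (SD, n = 4) and 1136 ± 325 CPM in WT (SD, n = 3), where CPM is counts per 1000000 after scaling of the totals. Over all genes 2130 were higher and 1838 lower in GOF in edgeR, 2598 and 1390 in limma on log2(FPKM + 1), and 2673 and 1384 on log2(FPKM + 0.1). For Pik3cd the log2 fold change was -0.80 (edgeR adjusted p = 0.0154), and without GOF replicates 1 and 3 it was no longer past the threshold. The defining markers of CD4 T cells were high in both groups, with Cd4 at 1064 to 1163 CPM in GOF and 698 to 855 CPM in WT. Markers of other cells were present as well. Of 14 myeloid markers 13 were higher in GOF and 0 lower, and their summed level was 491, 154, 527 and 179 CPM in GOF replicates 1 to 4, against 44.1 to 82.4 CPM in WT. Of 7 neutrophil markers all 7 were higher, with sums of 56.8 to 193 CPM in GOF and 0.482 to 6.97 CPM in WT. Of 8 B cell markers 4 were higher and 0 lower, with sums of 82.7 to 164 CPM in GOF and 27.2 to 85.9 CPM in WT. Of 12 tested markers of NK and innate-like T cells 9 were higher and 1 lower, with sums of 198 to 245 CPM in GOF and 133 to 142 CPM in WT. Of 4 tested stromal markers 0 were higher and 1, Pecam1, was lower, and Pdgfra had 0 counts in all 7 libraries. The stromal sums of 191 to 267 CPM in GOF and 364 to 425 CPM in WT were nearly all Pecam1, at 189 to 262 CPM in GOF and 362 to 422 CPM in WT, a gene that leukocytes also express, and each of the other 7 listed was at most at 1.69 CPM in any library. The summed naive CD4 T cell markers were at 6936 to 7856 CPM in GOF and 6834 to 7694 CPM in WT. Mertk and Camp had 0 counts in the WT libraries. GOF replicates 1 and 3 thus stood apart from replicates 2 and 4 in myeloid, neutrophil and B cell transcripts, and values with and without them are given below. In bulk RNA, more cells of a type and more RNA per cell cannot be told apart.

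Promoter sequences are shown for the genes whose window before the start site held a motif of the receptor, of FOXO factors or of the clock. RefSeq windows of 250 bases before a start site were at hand for 7 of the 9 genes, 15 windows in all, of which 6 belong to Sgk1, 3 to Tsc22d3, 2 to Per1 and 1 each to Hsd11b1, Fkbp5, Ddit4 and Txnip. The motifs, searched on both strands, were the palindrome of the receptor (GNACA and TGTNC with 3 bases between them), its monomer site AGAACA, which can lie within a palindrome, the FOXO site GTAAACA, the E-box CACGTG bound by clock factors, and the cyclic AMP response element TGACGTCA. Positions are those of GRCm38.p6, the assembly behind mm10, and matches are in capitals. For Hsd11b1, Tsc22d3, Txnip, Fkbp5 and Per1, 30 bases around each match are shown, Hsd11b1, Tsc22d3 and Fkbp5 read on the minus strand and the others on the plus strand. In GENCODE M21 all 250 bases of the Hsd11b1 window are exonic bases of Hsd11b1 itself, and its start site, at 193242360, lies inside the locus. The Tsc22d3 window used here holds 137 exonic bases of Tsc22d3. That of Txnip lies in an exon of the antisense gene Gm15441, and that of Per1 shares 1 base with an exon of Per1.
Hsd11b1 (chr1:193242480-193242509, FOXO site): aatgaaatggaGTAAACAttgtccattatg
Tsc22d3 (chrX:140600690-140600719, receptor monomer site): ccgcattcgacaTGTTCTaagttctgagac
Txnip (chr3:96557777-96557806, receptor palindrome): cgctaggaGCACACCGTGTCCacgcgcccc
Txnip (chr3:96557825-96557854, FOXO site): ttggaggcctgGTAAACAagggccaagtag
Fkbp5 (chr17:28486301-28486330, E-box): gcaagggccagaCACGTGggcagcggtgaa
Per1 (chr11:69098771-69098800, E-box): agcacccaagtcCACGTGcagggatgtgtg
For Sgk1 a whole window on the plus strand is shown, since it holds the full palindrome with a monomer site on each strand, and an E-box that overlaps a further monomer site.
Sgk1 (chr10:21993640-21993889): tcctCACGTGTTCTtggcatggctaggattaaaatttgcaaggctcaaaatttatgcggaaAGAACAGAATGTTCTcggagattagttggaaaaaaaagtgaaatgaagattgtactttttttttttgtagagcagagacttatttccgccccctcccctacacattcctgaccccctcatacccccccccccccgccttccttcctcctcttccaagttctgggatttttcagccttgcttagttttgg
The palindrome was found in 2 of the 15 windows, 1 of Sgk1 and that of Txnip, and in 0.387% of 32851 windows of all genes. Monomer sites stood in 4 of the 15 windows (3 of Sgk1 and 1 of Tsc22d3; 16.1% of all windows), FOXO sites in 2 (Hsd11b1 and Txnip; 3.17%) and E-boxes in 3 (Fkbp5, Per1 and Sgk1; 6.02%). No window of the 7 genes held the cyclic AMP response element, which is in 1.55% of all windows. Windows of 1 gene share that gene, a match in letters is no bound site, and the window of Ddit4, which held none of the motifs, says nothing about sites elsewhere. The genes with a palindrome in a window, Sgk1 and Txnip, were 1 higher in GOF and 1 not past the threshold.

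Hsd11b1 (ENSMUSG00000016194, mm10 chromosome 1, 193221634 to 193264075, minus strand) had the highest fold of the 9 genes. It was at 102, 112, 121 and 144 CPM in GOF replicates 1 to 4, against 14.3, 11.4 and 15.2 CPM in WT replicates 1 to 3. The groups were far apart, and the lowest GOF library was 6.71 times the highest WT library. The means were 120 ± 17.9 CPM in GOF (SD, n = 4) and 13.6 ± 1.96 CPM in WT (SD, n = 3). This was 8.77-fold, or 3.13 on the log2 scale (SE 0.16). Of the 12668 tested genes 356 had a larger rise. Per length, the mean deposited FPKM was 19.4 ± 2.82 in GOF and 2.1 ± 0.312 in WT. These levels stood at the 80.7th percentile of tested genes in GOF and at the 32.8th percentile in WT. The order of the GOF libraries was not that of the myeloid markers: replicate 4, with 179 CPM of myeloid markers, had the highest Hsd11b1, and replicate 1, with 491 CPM, the lowest. Without GOF replicates 1 and 3 the log2 fold change was 3.22, and without replicates 2 and 4 it was 3.04. The macrophage gene C1qa, for scale, was at 42.2, 11.9, 51.0 and 15.2 CPM in GOF replicates 1 to 4 and at 0.139 to 0.620 CPM in WT. What part myeloid or other cells have in the Hsd11b1 difference was not tested beyond these values. H6pd, the source of NADPH for HSD11B1, was at 58.0 ± 4.08 CPM in GOF and 57.5 ± 10.5 CPM in WT and did not pass the threshold (log2 fold change 0.01, SE 0.13, edgeR adjusted p = 0.949). Hsd11b2, whose enzyme inactivates corticosterone, had 0 counts in all 7 libraries.

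**Figure D1:**
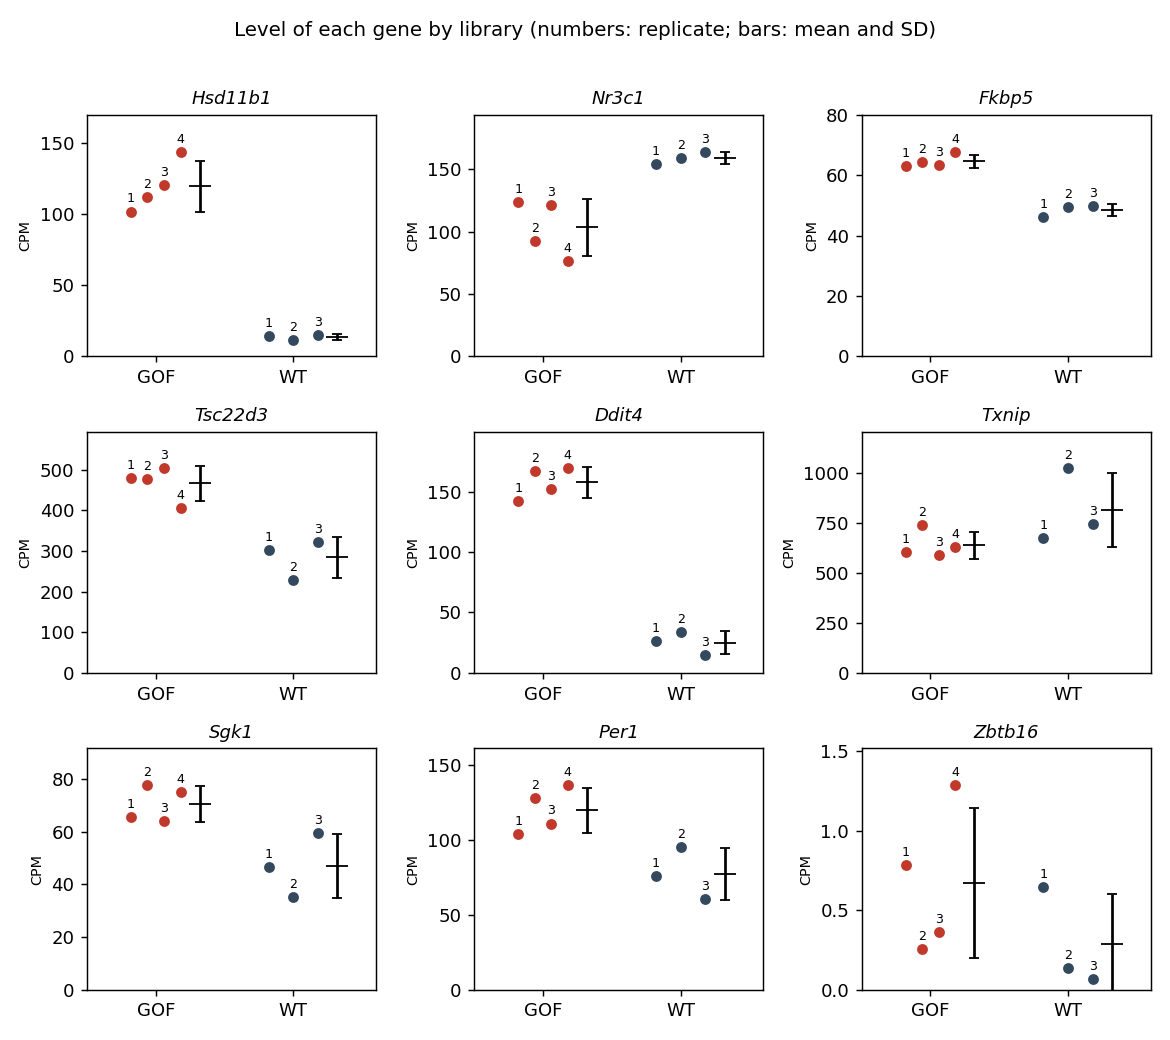
Level of each of the 9 genes in CPM (vertical axis, from 0) in the 4 GOF and 3 WT libraries. Points are libraries with their replicate number, and bars are the mean with 1 SD, cut off at 0 for Zbtb16. GOF libraries lie above WT for Hsd11b1, Fkbp5, Tsc22d3, Ddit4, Sgk1 and Per1, below WT for Nr3c1, and overlap WT for Txnip and Zbtb16.

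Genes around Hsd11b1 went in both directions. Of 6 genes that overlap it or lie within 20 kb, 5 were tested, 1 of which was higher and 3 lower in GOF. G0s2, an inhibitor of the triglyceride lipase ATGL, lies 8086 bases away and was at 4.20 ± 0.905 CPM in GOF and 1.19 ± 0.525 CPM in WT (log2 fold change 1.81, SE 0.37, edgeR adjusted p = 0.00578). Lamb3, a laminin chain on the opposite strand whose locus overlaps that of Hsd11b1, was at 2.97 ± 0.821 CPM in GOF and 14.2 ± 4.07 CPM in WT (log2 fold change -2.25, SE 0.27, edgeR adjusted p = 0.000416). Traf3ip3, which is expressed in lymphocytes, was at 242 ± 8.24 CPM in GOF and 349 ± 26.1 CPM in WT, and the unclassified transcript Gm37691 at 8.09 CPM in GOF and 31.5 CPM in WT. In GENCODE M21 no exonic base of Hsd11b1 is shared with another gene. These neighbours, and the distance of 20 kb, were chosen after the values were seen. Around all 9 genes together 35 neighbours within 100 kb were tested, of which 4 were higher and 5 lower. The shares over all tested genes were 16.8% higher and 14.5% lower.

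**Figure D2:**
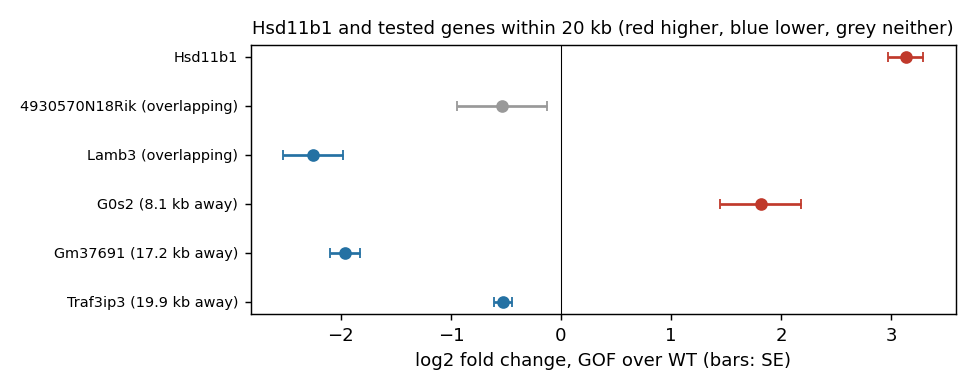
Log2 fold change, GOF over WT, with its SE (horizontal axis) of Hsd11b1 and of the 5 tested genes that overlap it or lie within 20 kb, ordered by distance. Hsd11b1, at 3.13, and G0s2, at 1.81, are higher in GOF, while Lamb3, at -2.25, is the lowest of those shown.

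Nr3c1, the glucocorticoid receptor itself (ENSMUSG00000024431, mm10 chromosome 18, 39410545 to 39491301), was the 1 gene of the 9 that was lower and past the threshold. Its levels were 124, 92.7, 122 and 76.6 CPM in GOF replicates 1 to 4, against 154, 159 and 164 CPM in WT replicates 1 to 3. The WT libraries lay close together, with a coefficient of variation of 3.05%, whereas the GOF libraries varied by 22.1%. GOF replicates 1 and 3 were nearer to WT than replicates 2 and 4, which is the split of the myeloid markers. The log2 fold change was -0.62 (SE 0.16), with means of 104 ± 22.9 CPM in GOF and 159 ± 4.86 CPM in WT. Without GOF replicates 1 and 3 it was -0.92, and without replicates 2 and 4 it was -0.36, past the threshold in both. Leaving out WT replicate 3 gave -0.60, no longer past the threshold. The part of other cells in this spread was not tested beyond these values. Per length, the receptor was at 6.33 ± 1.42 FPKM in GOF, below Hsd11b1, and at 9.23 ± 0.381 FPKM in WT, above Hsd11b1.

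Ddit4 (ENSMUSG00000020108, mm10 chromosome 10, 59949675 to 59951770) encodes REDD1, an inhibitor of the growth kinase complex mTORC1 that is induced by glucocorticoids, hypoxia and stress. It was at 142, 167, 152 and 169 CPM in GOF replicates 1 to 4, against 26.0, 33.9 and 14.8 CPM in WT replicates 1 to 3. No GOF library came near the WT range, and the lowest was 4.20 times the highest WT library. The means were 158 ± 12.7 CPM in GOF and 24.9 ± 9.61 CPM in WT, a 6.34-fold difference (log2 fold change 2.66, SE 0.25), and 490 tested genes had a larger rise. Relative to their means the WT libraries varied more, with a coefficient of variation of 38.6%, against 8.02% in GOF. Leaving out 1 library at a time moved the log2 fold change between 2.39 and 2.95.

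Tsc22d3 (ENSMUSG00000031431, mm10 chromosome X, 140539528 to 140600659) encodes GILZ, the leucine zipper protein through which glucocorticoids restrain NF-kappaB and AP-1 in lymphocytes. It was at 479, 478, 503 and 405 CPM in GOF replicates 1 to 4, against 303, 228 and 323 CPM in WT replicates 1 to 3. GOF replicate 4 was the lowest of its group and still above every WT library. The log2 fold change was 0.71 (SE 0.13), with means of 466 ± 42.2 CPM in GOF and 284 ± 50.0 CPM in WT. Without GOF replicates 1 and 3 it was 0.62, and without replicates 2 and 4 it was 0.80.

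Fkbp5 (ENSMUSG00000024222, mm10 chromosome 17, 28399095 to 28517524) encodes FKBP51, a co-chaperone that lowers the affinity of the receptor for hormone and so closes a feedback loop. Its levels were 63.1, 64.3, 63.3 and 67.8 CPM in GOF replicates 1 to 4, against 46.2, 49.5 and 49.9 CPM in WT replicates 1 to 3. The libraries of each group lay within a narrow band, with coefficients of variation of 3.43% in GOF and 4.17% in WT. The difference was the smallest of the 6 higher genes, at 1.33-fold (log2 fold change 0.41, SE 0.09). Hsd11b1, Ddit4, Tsc22d3 and Fkbp5 were past the threshold and higher under all 17 alternatives tried.

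Per1 (ENSMUSG00000020893, mm10 chromosome 11, 69095217 to 69109960), a repressor of the circadian clock and a direct target of the receptor, was at 104, 128, 111 and 136 CPM in GOF replicates 1 to 4, against 75.9, 94.8 and 60.6 CPM in WT replicates 1 to 3. The groups were close, the lowest GOF library being 1.10 times the highest WT library. The log2 fold change was 0.63 (SE 0.16), with means of 120 ± 14.96 CPM in GOF and 77.1 ± 17.1 CPM in WT. It was 0.48 without WT replicate 3 and 0.49 without GOF replicates 2 and 4, no longer past the threshold in either.

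Sgk1 (ENSMUSG00000019970, mm10 chromosome 10, 21882184 to 21999903), a kinase activated downstream of PI3K and a target of the receptor, was at 65.6, 77.7, 64.1 and 75.2 CPM in GOF replicates 1 to 4, against 46.6, 35.2 and 59.6 CPM in WT replicates 1 to 3. GOF replicate 3 and WT replicate 3 were close to each other. The mean was 70.6 ± 6.82 CPM in GOF and 47.1 ± 12.2 CPM in WT (log2 fold change 0.58, SE 0.17). The call was lost without WT replicate 1 (0.57) or 2 (0.41), without GOF replicate 2 (0.54) or 4 (0.55), without GOF replicates 1 and 3 together (0.69) and without 2 and 4 together (0.47), more alternatives than for any other of the 6.

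Txnip (ENSMUSG00000038393, mm10 chromosome 3, 96557957 to 96561883) encodes an arrestin-like inhibitor of thioredoxin and of glucose uptake, induced by glucocorticoids, by glucose through MondoA and by FOXO factors. It was at 603, 738, 589 and 628 CPM in GOF replicates 1 to 4, against 675, 1023 and 745 CPM in WT replicates 1 to 3. GOF replicate 2 lay inside the WT range, and WT replicate 2 stood above all other libraries. The log2 fold change of -0.35 (SE 0.15) was not past the threshold. Without WT replicate 1 it was -0.47 and past it, and without WT replicate 2 it was -0.15. Without GOF replicates 1 and 3 it was -0.26 and without replicates 2 and 4 it was -0.44, not past the threshold in either. In GENCODE M21 606 exonic bases of Txnip are shared with the antisense gene Gm15441, which was at 0.951 CPM in GOF and 1.05 CPM in WT. Reads of the 2 genes cannot be told apart without strand, which is not given in the sources used here.

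Zbtb16 (ENSMUSG00000066687, mm10 chromosome 9, 48654311 to 48835945) encodes PLZF, a strong target of the receptor in many tissues and the lineage factor of NKT and other innate-like T cells. It had 12, 4, 6 and 20 counts in GOF replicates 1 to 4, against 9, 2 and 1 counts in WT replicates 1 to 3. The groups overlapped, and at 0.255 to 1.29 CPM in GOF and 0.0696 to 0.647 CPM in WT no difference was detectable at this depth. Among other markers of such cells, Trdc was at 17.3 to 24.8 CPM in GOF and 21.8 to 29.5 CPM in WT.

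**Figure D3:**
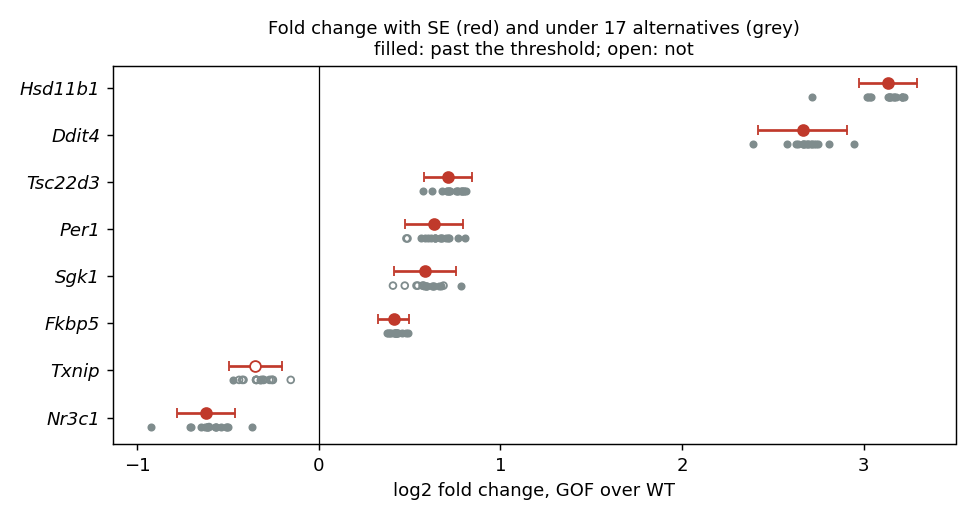
Log2 fold change, GOF over WT (horizontal axis), of the 8 tested genes. Red points with bars are the edgeR estimate with its SE, and grey points are the estimates under 17 alternatives, filled where past the threshold. Hsd11b1 and Ddit4 lie apart from the other genes, at 3.13 and 2.66, and Sgk1 has the most open points among the 6 higher genes.

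Per length the order of the genes differed between the groups. In GOF cells Ddit4 and Txnip were highest, at 95.7 ± 7.38 and 94.5 ± 10.0 FPKM, and their libraries overlapped. Tsc22d3 followed at 59.2 ± 5.51 FPKM, then Hsd11b1 at 19.4 ± 2.82 and Per1 at 14.8 ± 1.80 FPKM, whose libraries overlapped. Sgk1, Nr3c1 and Fkbp5 lay together at 7.06, 6.33 and 5.93 FPKM, and Zbtb16 was lowest at 0.134 FPKM. In WT cells Txnip was alone at the top at 114 ± 25.8 FPKM, before Tsc22d3 at 34.2 ± 6.18 FPKM. Ddit4 (14.3 FPKM) overlapped Nr3c1 (9.23 FPKM), which overlapped Per1 (9.03 FPKM). Sgk1 and Fkbp5 overlapped at 4.47 and 4.22 FPKM, and Hsd11b1 stood below both at 2.1 FPKM, before Zbtb16 at 0.0537 FPKM.

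Among the 4 GOF libraries the genes split in their own ways. Ddit4, Sgk1, Per1, Fkbp5 and Txnip were each higher in both of GOF replicates 2 and 4 than in both of 1 and 3, which is the opposite of the myeloid markers. Nr3c1 was higher in both of replicates 1 and 3, as the myeloid markers were. Tsc22d3 was too, though replicates 1 and 2 were nearly equal at 479 and 478 CPM, and Hsd11b1 followed neither order. For Fkbp5 this split spans only 63.1 to 67.8 CPM. With 4 libraries these orders are a description.

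**Figure D4:**
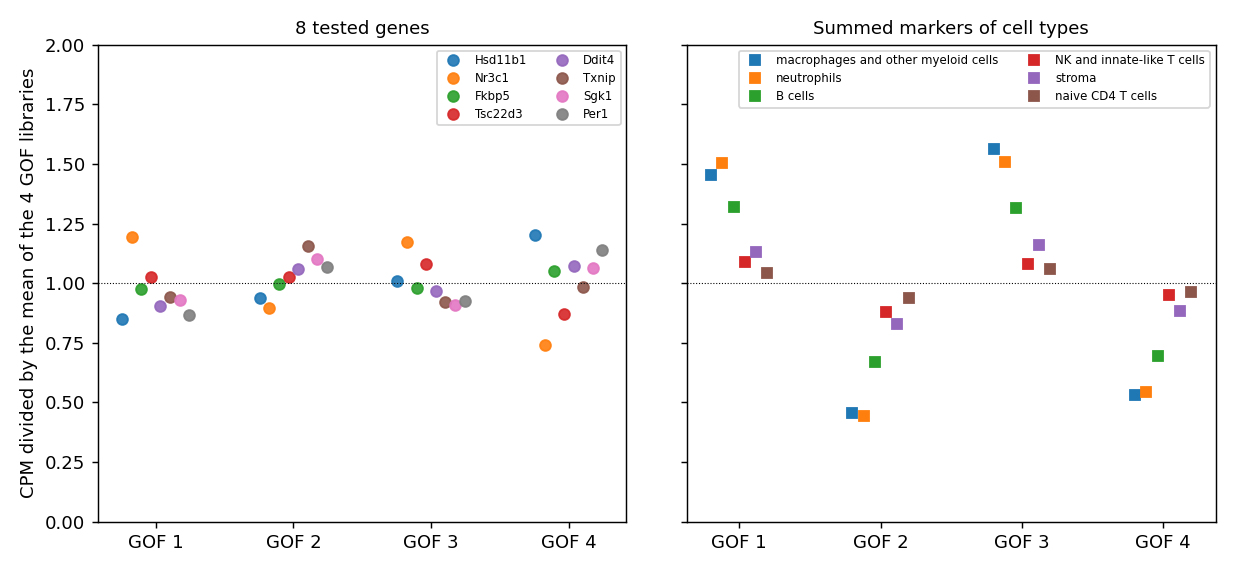
Level in each GOF library divided by the mean of the 4 GOF libraries (vertical axis, 1 is the mean), for the 8 tested genes on the left and for the summed markers of 6 cell types on the right. Myeloid and neutrophil markers are high in replicates 1 and 3, as is Nr3c1, at 124 and 122 CPM against 92.7 and 76.6 CPM in replicates 2 and 4.

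Around the receptor, the genes of its chaperones, coregulators and export pumps were more often lower than higher. Of 19 listed genes 17 were tested, 2 were higher, 6 were lower and 9 did not pass, with a median log2 fold change of -0.31. Over all tested genes 16.8% were higher and 14.5% lower, with a median of 0.01. Ncoa3, a coactivator of nuclear receptors, was at 185 ± 14.3 CPM in GOF and 452 ± 52.5 CPM in WT (log2 fold change -1.29, SE 0.10, edgeR adjusted p = 3.29e-05). Crebbp, the acetyltransferase CBP, fell to 134 ± 15.5 CPM in GOF, against 187 ± 8.29 CPM in WT. Fkbp4, which encodes FKBP52, the co-chaperone that favours hormone binding and nuclear transfer, fell to 145 ± 23.9 CPM in GOF, against 208 ± 21.1 CPM in WT (log2 fold change -0.52, SE 0.13, edgeR adjusted p = 0.0184). Fkbp5 and Fkbp4, whose products compete for the receptor complex, thus differed in opposite directions. Abcb1a and Abcb1b, the genes of P-glycoprotein, which exports corticosteroids, rose 2.54-fold (SE 0.36 on the log2 scale, edgeR adjusted p = 0.0214) and 2.04-fold (SE 0.21, edgeR adjusted p = 0.00619) in GOF. Their levels were 20.3 ± 4.65 and 18.7 ± 2.19 CPM in GOF, against 8.00 ± 4.83 and 9.15 ± 2.71 CPM in WT. They are close copies, so the split of reads between them is uncertain. Hsp90ab1, a heat shock protein that chaperones the receptor, was at 1490 ± 206 CPM in GOF and 1877 ± 49.7 CPM in WT and did not pass (edgeR adjusted p = 0.0509). Of the other chaperone genes listed, Hsp90aa1 (log2 fold change 0.03), Stip1 (-0.06) and Hspa8 (-0.44) did not pass either. Ptges3 (-0.43) was lower and past the threshold. The count of lower genes rested on single libraries, being 3 without WT replicate 1 or GOF replicate 1, 2 without GOF replicate 3 and 9 without GOF replicate 2. Without GOF replicates 1 and 3 it was 1, and the calls of Crebbp, Fkbp4, Abcb1a and Abcb1b were lost, with log2 fold changes of -0.44, -0.35, 1.45 and 0.89, against -0.48, -0.52, 1.34 and 1.029 with all libraries. The call of Fkbp4 was also lost without WT replicate 1 (-0.47), WT replicate 3 (-0.49) or GOF replicate 3 (-0.47), and that of Abcb1a without WT replicate 3 (1.20) and without GOF replicates 2 and 4 (1.23). In limma on log2(FPKM + 1) the log2 fold change of Abcb1b was 0.63.

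Other genes known as glucocorticoid-induced went both ways in equal number. Of 21 listed, 16 were tested, 7 were higher, 7 were lower and 2 did not pass, with a median of -0.33. All tested genes had shares of 16.8% higher and 14.5% lower and a median of 0.01. Cxcr4, the receptor for CXCL12, rose to 231 ± 26.5 CPM in GOF, against 63.2 ± 7.94 CPM in WT (log2 fold change 1.87, SE 0.13, edgeR adjusted p = 1.59e-05). Irs2, an adaptor of insulin and cytokine receptors, fell to 8.71 ± 1.39 CPM in GOF, against 28.3 ± 4.80 CPM in WT (log2 fold change -1.70, SE 0.17, edgeR adjusted p = 0.000152). Bcl2l11, which encodes the death protein BIM through which glucocorticoids kill lymphocytes, fell to 62.4 ± 9.36 CPM in GOF, against 186 ± 44.8 CPM in WT. Sesn1, a stress-induced inhibitor of mTORC1, fell to 97.2 ± 5.67 CPM in GOF, against 183 ± 22.6 CPM in WT. A pair of genes was chosen after its values were seen. Klf9, a direct target of the receptor in many tissues, was at 1.47 to 2.80 CPM in GOF and 6.54 to 8.56 CPM in WT (log2 fold change -2.04, SE 0.28, edgeR adjusted p = 0.000858). Dusp1, a MAP kinase phosphatase induced by the receptor and by many other stimuli, was at 340 ± 14.5 CPM in GOF and 116 ± 34.8 CPM in WT. Fkbp5, Tsc22d3 and Per1 were higher and Klf9 lower in the same libraries, a contrast that the choice of Klf9 fixed in advance. Klf9 had 23 to 43 counts in GOF libraries, and its value under the alternatives was not taken. Metallothioneins Mt1 and Mt2, also receptor targets, did not pass the filter, at 0.574 and 0.106 CPM in GOF and 0.0459 and 0 CPM in WT. The count of higher genes was 4 without GOF replicates 1 and 3, while that of lower genes was 7 without either pair of GOF libraries.

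The cytokine and mediator genes that glucocorticoids repress went in both directions. Of 17 listed 9 passed the filter, 3 were higher, 1 was lower and 5 did not pass the threshold, with a median of 0.60. Over all tested genes 16.8% were higher and 14.5% lower, with a median of 0.01. Tnf fell to 11.9, 13.3, 14.6 and 12.5 CPM in GOF replicates 1 to 4, against 103, 54.0 and 86.8 CPM in WT replicates 1 to 3 (log2 fold change -2.64, SE 0.20, edgeR adjusted p = 3.06e-05). Ccl5, a chemokine of memory and cytotoxic cells, was at 31.2 ± 4.32 CPM in GOF and 11.8 ± 0.692 CPM in WT. Ifng reached 4.10 ± 1.05 CPM in GOF, against 0.208 ± 0.183 CPM in WT, and Il1b, a cytokine of myeloid cells, 12.7 ± 2.20 CPM in GOF, against 0.998 ± 0.980 CPM in WT. All 3 rose in edgeR, with adjusted p-values of 0.000164, 0.00118 and 0.00142, in libraries where myeloid and NK markers were also higher. What part such cells have in these rises was not tested. All 4 calls held without GOF replicates 1 and 3 and without 2 and 4. In limma on log2(FPKM + 1), which shrinks changes of low genes, the log2 fold change was 1.92 for Ifng and 2.24 for Il1b, against 4.24 and 3.66 in edgeR.

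Among the clock genes beside Per1 more were lower than higher in GOF, and more than these did not pass the threshold. Of 19 listed 18 were tested, 1 was higher, 7 were lower and 10 did not pass, with a median of -0.34. The shares over all tested genes were 16.8% higher and 14.5% lower, with a median of 0.01. Per3, a homolog of Per1, fell to 2.21, 2.24, 1.92 and 2.38 CPM in GOF replicates 1 to 4, against 9.91, 13.2 and 14.3 CPM in WT replicates 1 to 3 (log2 fold change -2.51, SE 0.20, edgeR adjusted p = 4.04e-05). The nuclear receptor gene Nr1d2 fell to 33.9 ± 1.97 CPM in GOF, against 73.4 ± 9.36 CPM in WT, and the repressor gene Cry1 to 35.8 ± 3.06 CPM in GOF, against 67.4 ± 6.27 CPM in WT. Dbp, a clock output factor, fell to 27.3 ± 5.20 CPM in GOF, against 63.6 ± 3.78 CPM in WT (log2 fold change -1.22, SE 0.15, edgeR adjusted p = 0.000512). Npas2, a partner of BMAL1, was the 1 higher gene, at 1.45 ± 0.453 CPM in GOF and 0.279 ± 0.117 CPM in WT, and its call was lost without GOF replicates 1 and 3 (log2 fold change 2.32). Per2, at 5.92 ± 1.90 CPM in GOF and 3.76 ± 1.71 CPM in WT, did not pass (edgeR adjusted p = 0.238). Per1 and Per3 thus differed in opposite directions. The time of day at which the mice were killed is not given in the sources used here, and its part was not tested. Without WT replicate 2 the count of higher clock genes was 2. In limma on log2(FPKM + 1) the log2 fold change was -0.73 for Per3 and 0.30 for Npas2.

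The family relatives of the 9 genes did not share their direction as a group. Of 17 listed 15 were tested, 2 were higher, 5 were lower and 8 did not pass, with a median of -0.09. All tested genes had shares of 16.8% higher and 14.5% lower and a median of 0.01. Tsc22d1, a relative of Tsc22d3, fell to 17.9 ± 2.01 CPM in GOF, against 30.7 ± 0.880 CPM in WT (log2 fold change -0.77, SE 0.12, edgeR adjusted p = 0.00170). Its other listed relatives, Tsc22d2 (-0.17) and Tsc22d4 (0.25), did not pass. Fkbp1a, the gene of FKBP12, fell to 143 ± 11.5 CPM in GOF, against 267 ± 30.6 CPM in WT, and Fkbp4, given above, also fell. Arrdc2 and Arrdc3, arrestin relatives of Txnip, fell with log2 fold changes of -0.40 and -0.94 (edgeR adjusted p = 0.0297 and 0.0358). Zbtb7b, which encodes the CD4 lineage factor ThPOK, rose to 388 ± 44.5 CPM in GOF, against 190 ± 15.1 CPM in WT (2.04-fold, SE 0.11 on the log2 scale, edgeR adjusted p = 0.000186). Zbtb32, a relative of Zbtb16, reached 2.49 ± 1.10 CPM in GOF. Its 10 WT counts were all in replicate 3, without which its log2 fold change was 8.26 in place of 3.38. In limma on log2(FPKM + 1) the log2 fold change was 0.77 for Zbtb32 and -0.37 for Tsc22d1. The call of Zbtb32 was lost without WT replicate 1 (2.81) or 2 (2.80), without GOF replicate 1 (3.33) or 3 (3.08) and without both of these (2.78). That of Arrdc2 was lost without WT replicate 1 (-0.39) or 2 (-0.35) and without GOF replicate 1 (-0.38), 2 (-0.36) or 3 (-0.40), without GOF replicates 1 and 3 (-0.40) and without 2 and 4 (-0.40). It was also lost with upper-quartile scaling (-0.32), with no filter on low counts (-0.39) and with the replicate block (-0.45), in all under 10 of 17 alternatives. That of Arrdc3 was lost without WT replicate 2 (-0.97) or 3 (-0.81) and without GOF replicate 2 (-0.85), while its log2 fold change was -1.52 without GOF replicates 1 and 3. Over the list, 3 genes were lower when WT replicate 2, WT replicate 3, GOF replicate 2 or GOF replicate 3 was left out, and 1 was higher when WT replicate 1, GOF replicate 1 or GOF replicate 3 was.

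**Figure D5:**
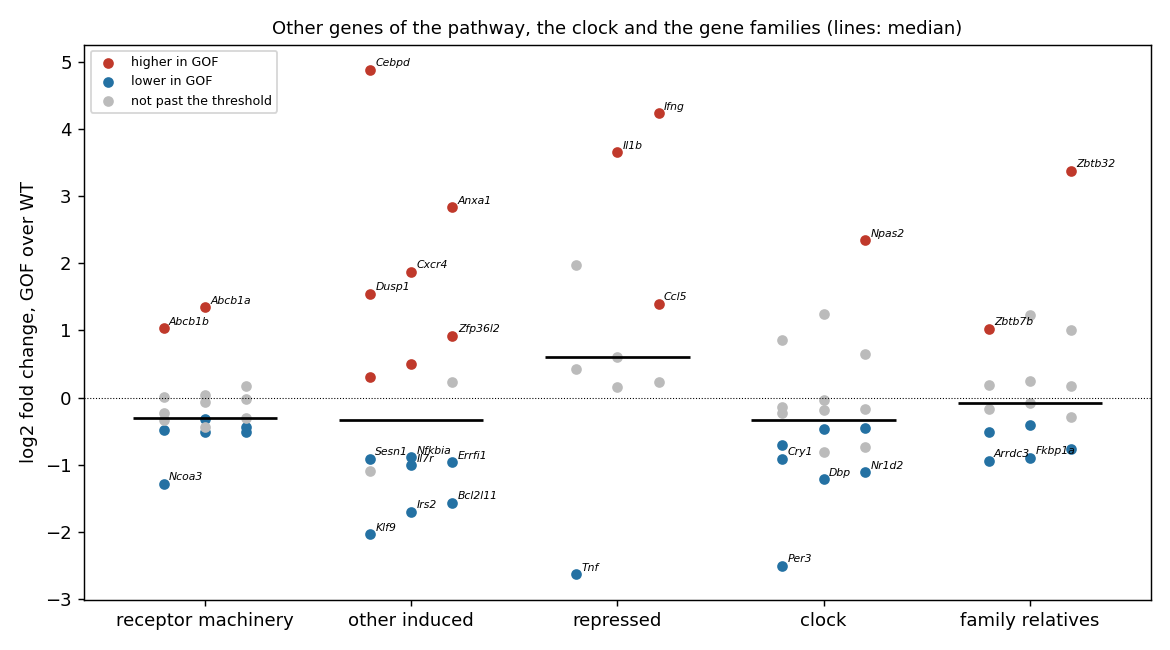
Log2 fold change, GOF over WT (vertical axis), of the tested genes of 5 lists: receptor machinery, other glucocorticoid-induced genes, glucocorticoid-repressed genes, the clock and family relatives of the 9 genes. Red and blue points passed the threshold upward and downward, grey points did not, lines are medians, and larger changes are labelled. Induced genes lie on both sides of 0, with 7 higher and 7 lower.

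The genes whose profile over the 7 libraries was nearest to that of Hsd11b1 were sought among 8888 tested genes. These had a mean FPKM of at least 2 over all 7 libraries. Likeness was the mean absolute difference of log2(CPM + 0.5), each gene less its own mean. Since Hsd11b1 differed 8.77-fold between the groups, nearness mostly reflects a similar fold, and shared control was not tested. The 5 nearest were the noncoding RNA genes Gm11707 (0.12), Gm26888 (0.15) and A430093F15Rik (0.15), then Ampd1, the AMP deaminase of muscle (0.16), and Cd69, an early activation marker (0.20). Cd69 was at 385 ± 25.8 CPM in GOF and 44.9 ± 14.1 CPM in WT. Ampd1 was at 31.3 ± 1.76 CPM in GOF and 2.73 ± 0.681 CPM in WT. In limma on log2(FPKM + 1) the log2 fold changes of Gm26888, A430093F15Rik and Ampd1 were 2.02, 2.05 and 2.32, against 3.20, 3.64 and 3.52 in edgeR. In WT these genes were at 0.537, 0.348 and 0.559 FPKM. They passed the filter on FPKM only through their GOF levels of 5.21, 4.60 and 6.75 FPKM.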

How the data were processed

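RNA sequencing of naive CD4 T cells gave 7 libraries, 4 from GOF and 3 from WT mice, grouped by the sample titles. The authors' table lists 34745 genes, each with its raw count and its FPKM in every library. Per the submitters' processing notes the tools were HISAT2 2.0.4, Cufflinks 2.1.1 and Cuffdiff on mm10, while no source used here gives the counting rule or strand setting. Dividing each deposited count by 1 length per gene and by its library's total returns the deposited FPKM within 0.1% for 100% of the 87755 values compared.

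Counts were tested with edgeR 4.0.16 (quasi-likelihood, filterByExpr, TMM) in R 4.3.3, with Benjamini-Hochberg adjustment over 12668 genes. CPM uses TMM-scaled totals, and the SE comes from the fold change and the F statistic. The 17 alternatives, set out in the closing section, include DESeq2 1.42.0 and limma 3.58.1. The procedure was tested on simulated data. The 9 genes, the 5 gene lists and the alternatives were chosen with earlier results of these data known. Named list genes are up to 4 per list with the smallest p among those past the threshold, and all genes of a count of 5 or fewer. Further list genes, among them H6pd, Hsp90ab1, Klf9, Dusp1 and Per2, are named outside this rule. Their single values under the alternatives were not taken. Where 2 rows share a symbol (Itgam), the lower Ensembl number was used. The stated mice per group equal the libraries, their number limits the precision, and the counts are reads without molecular identifiers. A result on 1 further gene is not reported here.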

Additional observations from a re-analysis of the deposited data

How the results depend on the processing

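Among values of single named genes under the alternatives, 589 kept their direction and their side of the threshold, 42 were no longer past it, 2 were newly past it (Txnip, -0.47 without WT replicate 1 and -0.32 with the replicate block) and 0 turned their direction. Deviations of same-numbered GOF and WT libraries from their group means had correlations of 0.03, 0.15 and -0.04 over 12668 genes. Those of differently numbered libraries ran from -0.18 to 0.13. With so few libraries these values cannot decide whether the replicate numbers pair the mice. With the replicate block 5 of the 9 genes were higher (Sgk1, at 0.58, was no longer past the threshold) and 2 lower, and over all genes 1677 were higher and 1519 lower. With the filter set to a mean FPKM of 5, where 6502 genes remain, 1093 were higher and 1069 lower over all, with 0 higher in the receptor machinery, 4 lower induced genes, 1 higher repressed gene, 0 higher clock genes and 3 lower family relatives, since fewer genes were tested. Of the family relatives 4 were higher in DESeq2, in limma on log2(FPKM + 1) and in limma on log2(FPKM + 0.1), and 3 were lower with upper-quartile scaling; the cause was not tested. Without GOF replicates 1 and 3 the counts were 1074 higher and 1050 lower over all genes, 0 and 1 in the receptor machinery, 4 higher among induced genes, 0 higher clock genes, and 1 higher and 3 lower family relatives, and without GOF replicates 2 and 4, as many samples, they were 1764 higher and 1358 lower over all genes and 1 and 9 in the receptor machinery; the cause of this gap was not tested. Leaving out 1 library at a time gave 0 to 2 lower and 5 to 6 higher of the 9 genes, 1 to 2 higher and 2 to 9 lower in the receptor machinery, 1 to 2 higher clock genes, and 1 to 3 higher and 3 to 5 lower family relatives. RLE scaling and the absence of a filter changed no call of the 9 genes. Depth limits Zbtb16, the metallothioneins and most cytokines.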
